A study of Mus musculus with 8 samples.

Results

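The transcripts described here belong to 37 antioxidant and glutathione genes of the mouse, out of 56691 genes in the deposited table. They were grouped as a family by function. The family holds the enzymes that remove superoxide and peroxides, the peroxiredoxin, thioredoxin and glutathione systems, glutathione transferases, haem oxygenases, a quinone reductase, the regulator pair *Nfe2l2* and *Keap1*, and the oxidase gene *Nox4*. RNA was taken from the cerebellum of 4 *Atm*-WT (ATM +/+) and 4 *Atm*-KO (ATM -/-) mice of the B6;129S4-Atmtm1Bal/J line at 6 months of age, and a library was sequenced for each mouse. ATM is a kinase that responds to DNA breaks and to oxidants, and its loss causes ataxia-telangiectasia in people. The knockout was present in every cell from conception, and no treatment was named for these mice. The mice are labelled 2M, 7M, 13M and 32M (*Atm*-WT) and 1M, 7F, 11M and 12M (*Atm*-KO), and values are given in these orders throughout. Only mouse 7F carries the letter F. It was the highest *Atm*-KO mouse for 19 of the 37 genes, and whether this goes with the letter was not tested. The question put to the data was whether these transcripts stood at other levels in the cerebellum without ATM.

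Cells convert superoxide to hydrogen peroxide by superoxide dismutases, and catalase, glutathione peroxidases and peroxiredoxins then reduce the peroxide. Thioredoxin and glutathione hand the electrons on, and their reductases draw them from NADPH. The transcription factor NRF2, encoded by *Nfe2l2*, drives many of these genes through a DNA motif called the antioxidant response element, while KEAP1 marks NRF2 for destruction until oxidants disable it. TXNIP binds and inhibits thioredoxin and also limits glucose uptake, and its gene is driven by glucose through carbohydrate response elements.

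These DNA elements were looked for in the 250 bases before the canonical start of each gene in GRCm39, on both strands. The core of the antioxidant response element, written as TGACNNNGC, matched in 1606 of 15322 promoters of protein-coding genes tested (10.5%) and in 6 of the 37 promoters here (16.2%). A carbohydrate response element, written as 2 copies of CACGNG set 5 bases apart, matched in 8 of the 15322 promoters (0.0522%), and *Txnip* was the member that held it. The 6 matches and the *Txnip* match are shown because they are the regulatory letters that the family is known for, with the match in capitals, read along the strand of the gene:
Sod1 (chr16:90017303-90017331, + strand): ggcgcgctgtGCAAAGTCAgtgacaatcc
Prdx1 (chr4:116542653-116542681, + strand): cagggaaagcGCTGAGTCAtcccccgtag
Prdx6 (chr1:161079143-161079171, - strand): ccacttcctcTGACTTAGCccacgtcaca
Txnrd1 (chr10:82694938-82694966, + strand): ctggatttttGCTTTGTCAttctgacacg
Gclm (chr3:122039062-122039090, + strand): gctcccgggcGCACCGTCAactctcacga
Gstm5 (chr3:107803118-107803136, + strand): caccgcccacTGACCACGC
Txnip (chr3:96465182-96465210, + strand): actgtgCACGAGGGCTGCACGAGcctcca
The *Prdx6* and *Gstm5* matches read TGAC to GC along the gene, and the other 4 core matches lie on the opposite strand and read GC to GTCA. The *Txnip* match lay from 79 to 63 bases before the start. A match describes letters in this window and is not a measured binding site.

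Transcripts of the family were lower in *Atm*-KO cerebellum in 34 of 37 cases, against 53.1% of the 22423 genes tested, and the median log2 fold change (*Atm*-KO over *Atm*-WT) was -0.20, against -0.02 over all genes tested. All 37 genes are protein-coding, and of protein-coding genes tested from 61.6% to 66.4% were lower across quintiles of canonical transcript length. All 37 had passed the filter on low counts. No member passed an adjusted p of 0.05 in edgeR's quasi-likelihood test, which called 4 of all genes tested (0.0178%). At an unadjusted p under 0.05, 14 members were lower (8.48% of all genes tested) and 0 were higher (11.7% of all genes tested). *Txnip*, with its transcript at 0.495 times the *Atm*-WT level, and *Nfe2l2*, at 0.695 times, had the smallest adjusted p-values (0.0513 and 0.0981). They were also the 2 members that were lower with an adjusted p under 0.1, a level that 0.647% of all genes tested reached in that direction. The *Atm*-KO mice all lay below the *Atm*-WT mice for 7 members (5.12% of all genes tested) and all above for 1, *Txnrd2* (6.47% of all genes tested). DESeq2's Wald test, run as an alternative, called 4 members lower at an adjusted p under 0.05, namely *Txnip*, *Nfe2l2*, *Cat* and *Prdx1* (2.44% of all genes with an adjusted p), and 0 higher (5.05%). limma voom called 0 members. The 14 members with an unadjusted p under 0.05 became 7 without mouse 32M (6.96% of all genes in that fit were lower at that level), 7 without 11M (6.33%), 9 without 1M (5.67%) and 9 without 12M (6.01%).

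**Figure D1:**
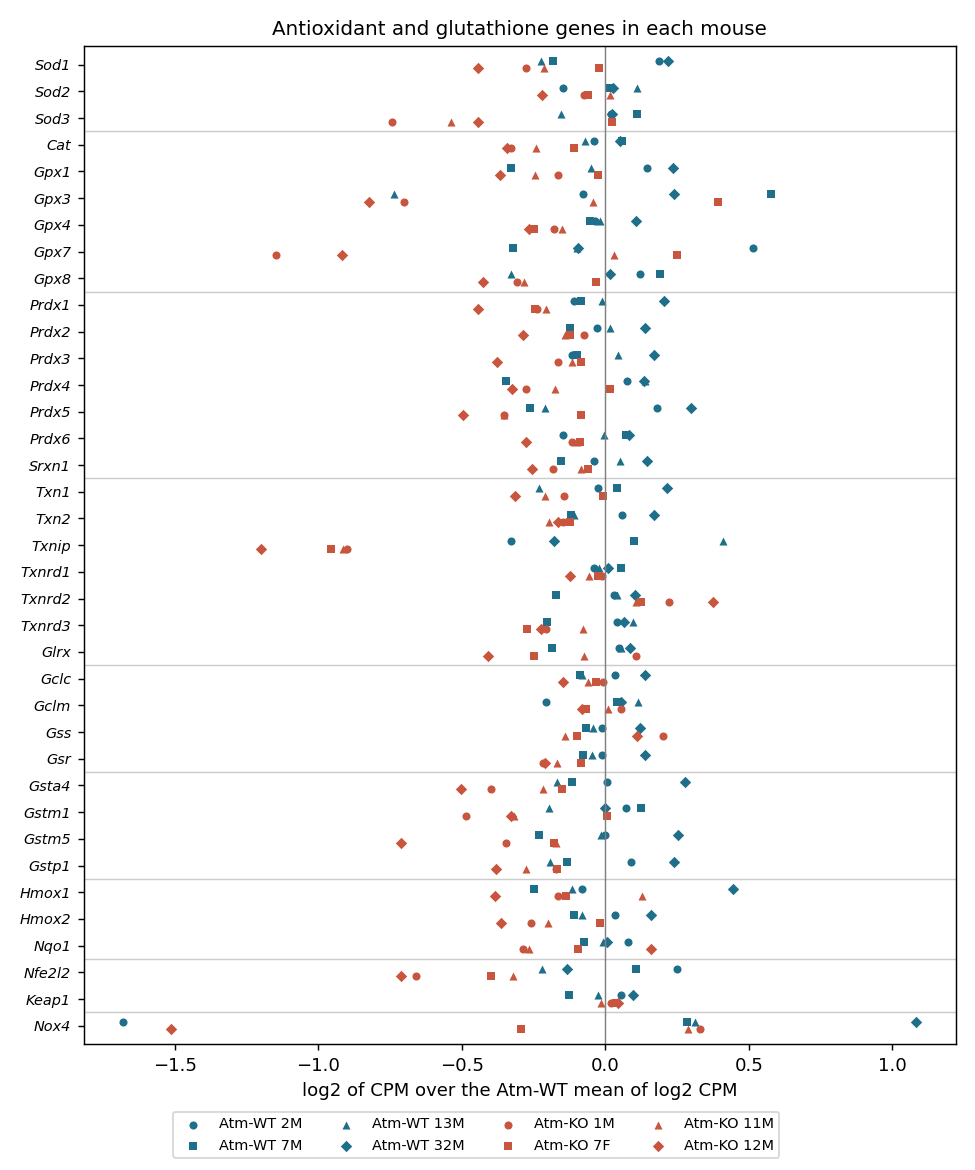
Each row is a gene and each symbol a mouse, placed on the horizontal axis by the log2 of its CPM relative to the mean of the 4 *Atm*-WT mice. Grey lines separate the groups of genes by role. The *Atm*-KO mice of *Txnip* and *Nfe2l2* lie left of all *Atm*-WT mice, those of *Txnrd2* lie right of them, and mouse 12M (red diamonds) is the lowest *Atm*-KO mouse in 27 of the 37 rows.

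The libraries held from 65967130 to 88030300 counts, and CPM are counts scaled to the library total with the TMM factors of edgeR. The targeted gene *Atm* (chr9:53348097-53448236, GRCm39) stood at 67.6, 80.03, 79.4 and 58.99 CPM in *Atm*-WT mice and at 51.1, 44.3, 41.1 and 44.9 CPM in *Atm*-KO mice. Its level was lower in every *Atm*-KO mouse, with a log2 fold change of -0.66 ± 0.10 (SE) and an adjusted p of 0.0775 by edgeR. These counts cover the whole gene and not the disrupted part alone. Summed markers of granule cells ranged from 5240 to 6260 CPM in *Atm*-WT and from 5450 to 7440 CPM in *Atm*-KO mice, and those of Purkinje cells from 7740 to 9620 CPM and from 7620 to 9190 CPM, so the defining neurons of the cerebellum were present in all libraries. Mice 32M and 12M stood apart on a surrogate variable estimated by sva from all genes (0.43 and -0.875, with the other 6 mice from 0.0031 to 0.154). The share of counts on the GENCODE class TEC, gene models not yet tested by experiment, was from 0.204% to 0.333% in *Atm*-WT and from 0.354% to 0.529% in *Atm*-KO mice (two-sided exact permutation p = 0.0286, the smallest that 4 against 4 allows). Among the members, mouse 32M was the highest *Atm*-WT mouse for 23 genes and mouse 12M the lowest *Atm*-KO mouse for 27. Without these 2 mice, 30 of 37 members were lower (49.4% of all genes in that fit), 6 had an unadjusted p under 0.05 (6.05% of all genes were lower at that level) and the median log2 fold change of the members was -0.11.

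**Figure D2:**
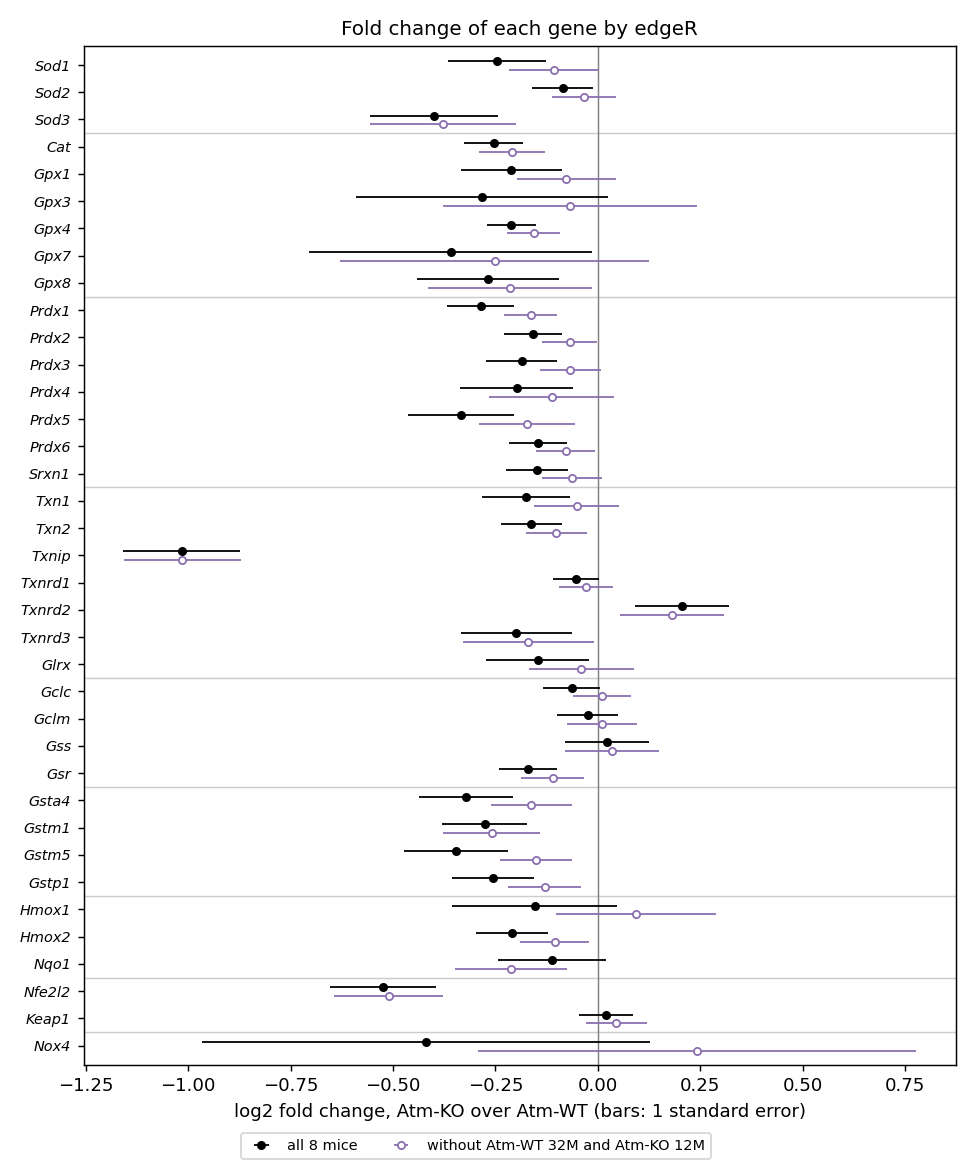
The horizontal axis gives the log2 fold change of each gene (*Atm*-KO over *Atm*-WT) by edgeR with 1 standard error, for all 8 mice (black) and without mice 32M and 12M (open purple). *Txnip* stays at -1.01 without them (-1.02 with all mice) and *Nfe2l2* at -0.51 (-0.53), while *Prdx1* moves from -0.29 to -0.16 and *Gstm5* from -0.35 to -0.15.

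Of the regulator pair, *Nfe2l2* was lower and *Keap1* stood close to its *Atm*-WT level. *Nfe2l2* (chr2:75504739-75534985), the gene of NRF2, stood at 20.5, 18.6, 14.8 and 15.7 CPM in *Atm*-WT mice and at 10.9, 13.1, 13.8 and 10.5 CPM in *Atm*-KO mice. The highest *Atm*-KO mouse, 11M, lay under the lowest *Atm*-WT mouse, 13M, and the genotype means were 17.4 ± 2.62 CPM in *Atm*-WT mice and 12.1 ± 1.61 CPM in *Atm*-KO mice (SD, n = 4 mice per genotype). The log2 fold change was -0.53 ± 0.13 (SE; unadjusted p = 0.00173, adjusted p = 0.0981 by edgeR, 0.00539 by DESeq2). *Keap1* (chr9:21141026-21150679), the gene of its inhibitor, stood at 44.5, 39.3, 42.1 and 45.9 CPM in *Atm*-WT mice and at 43.5, 44.01, 42.5 and 44.3 CPM in *Atm*-KO mice. The genotypes overlapped for *Keap1*, the *Atm*-KO mice lay within the range of the *Atm*-WT mice, and the log2 fold change was 0.02 ± 0.07. Exons of *Keap1* share bases with antisense transcripts, and whether the counting used strand is not given. The ratio of *Nfe2l2* to *Keap1* within a mouse was 0.460, 0.472, 0.352 and 0.342 in *Atm*-WT mice and 0.251, 0.297, 0.325 and 0.238 in *Atm*-KO mice. It was lower in each *Atm*-KO mouse than in any *Atm*-WT mouse. The ratio was chosen after the values of both genes were seen, so it describes these mice and was not tested.

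**Figure D3:**
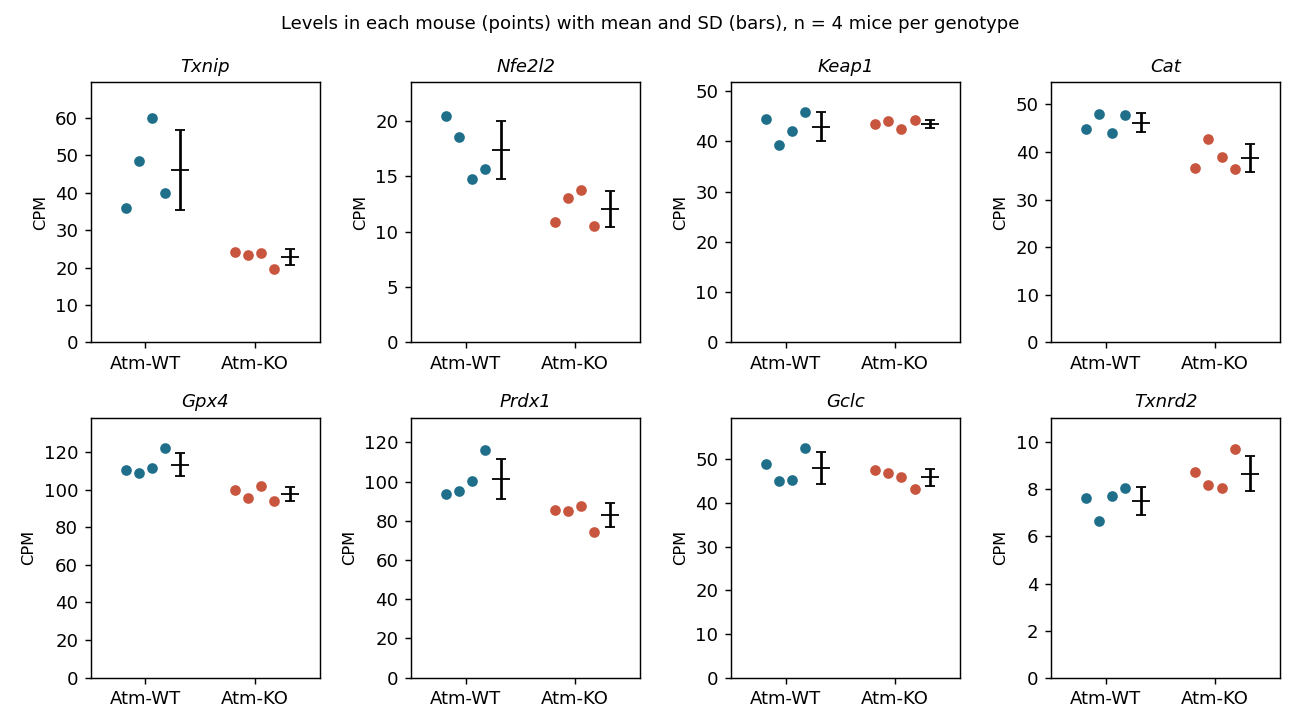
Points give the CPM of each mouse on the vertical axis, which starts at 0, and bars give the mean and SD of 4 mice per genotype. The genotypes are separate for *Txnip*, *Nfe2l2*, *Cat*, *Gpx4* and *Prdx1* (lower in *Atm*-KO) and for *Txnrd2* (higher), and overlap for *Keap1* and *Gclc*.

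Within the thioredoxin system, the inhibitor was the transcript that differed most. *Txnip* (chr3:96465267-96469201) stood at 36.01, 48.4, 60.1 and 39.95 CPM in *Atm*-WT mice and at 24.2, 23.3, 24.01 and 19.7 CPM in *Atm*-KO mice. The *Atm*-KO mice spanned a narrow range below the lowest *Atm*-WT mouse, and the *Atm*-WT mice themselves spread widely, with 13M the highest. The means were 46.1 ± 10.7 CPM in *Atm*-WT mice and 22.8 ± 2.12 CPM in *Atm*-KO mice (SD, n = 4), the log2 fold change was -1.02 ± 0.14 (SE), and the adjusted p was 0.0513 by edgeR and 4.17e-08 by DESeq2. The adjusted p was under 0.05 in 6 of 18 alternatives, among them edgeR without mice 32M and 12M (adjusted p = 0.0232), and was highest by edgeR without mouse 1M (0.263). A transcript on the opposite strand, *Gm15441*, shares 29.3% of the *Txnip* exon bases. Its own level was at most 0.875 CPM in any mouse, against at least 19.7 CPM for *Txnip*, and it too was lower in every *Atm*-KO mouse (log2 fold change -1.40 ± 0.34, unadjusted p = 0.00164, adjusted p = 0.0963 by edgeR). Without the strand setting, reads of the shared bases cannot be told apart.

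The targets of TXNIP were nearer to the *Atm*-WT level. *Txn1*, the cytosolic thioredoxin, had means of 19.3 ± 2.44 CPM in *Atm*-WT mice and 17.1 ± 1.53 CPM in *Atm*-KO mice and a log2 fold change of -0.17 ± 0.11 (-0.05 without mice 32M and 12M), with overlap between the genotypes. The ratio of *Txnip* to *Txn1* within a mouse was 1.91, 2.46, 3.68 and 1.79 in *Atm*-WT mice and 1.40, 1.22, 1.45 and 1.28 in *Atm*-KO mice. The genotypes did not overlap in this ratio, which was also chosen after the values were seen and not tested. *Txn2*, the mitochondrial thioredoxin, stood at 54.8, 48.5, 48.9 and 59.1 CPM in *Atm*-WT mice and at 47.5, 48.4, 45.99 and 46.9 CPM in *Atm*-KO mice. Its *Atm*-KO mice were all below the *Atm*-WT mice by a narrow gap, with a log2 fold change of -0.16 ± 0.07 and an unadjusted p of 0.0506 by edgeR. The log2 fold change was -0.11 without mouse 32M and -0.10 without mice 32M and 12M.

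Among the reductases that recharge the thioredoxins, *Txnrd2*, the mitochondrial enzyme, was the member higher in every *Atm*-KO mouse. It stood at 7.65, 6.65, 7.70 and 8.05 CPM in *Atm*-WT mice and at 8.73, 8.17, 8.06 and 9.71 CPM in *Atm*-KO mice, and mouse 11M exceeded the highest *Atm*-WT mouse by a small margin. The log2 fold change was 0.21 ± 0.12 (unadjusted p = 0.1, adjusted p = 0.338 by edgeR). The cytosolic *Txnrd1* (log2 fold change -0.05 ± 0.06), the reductase gene *Txnrd3* (-0.20 ± 0.14) and the glutaredoxin gene *Glrx* (-0.15 ± 0.13) overlapped between the genotypes, and were at -0.03, -0.17 and -0.04 without mice 32M and 12M. Of the 7 genes of this group 6 were lower (53.1% of all genes tested), and the summed level of the group ranged from 206 to 223 CPM in *Atm*-WT and from 172 to 188 CPM in *Atm*-KO mice. Without *Txnip*, the sum of the other 6 genes ranged from 163 to 181 CPM in *Atm*-WT and from 153 to 163 CPM in *Atm*-KO mice, and the genotypes overlapped.

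**Figure D4:**
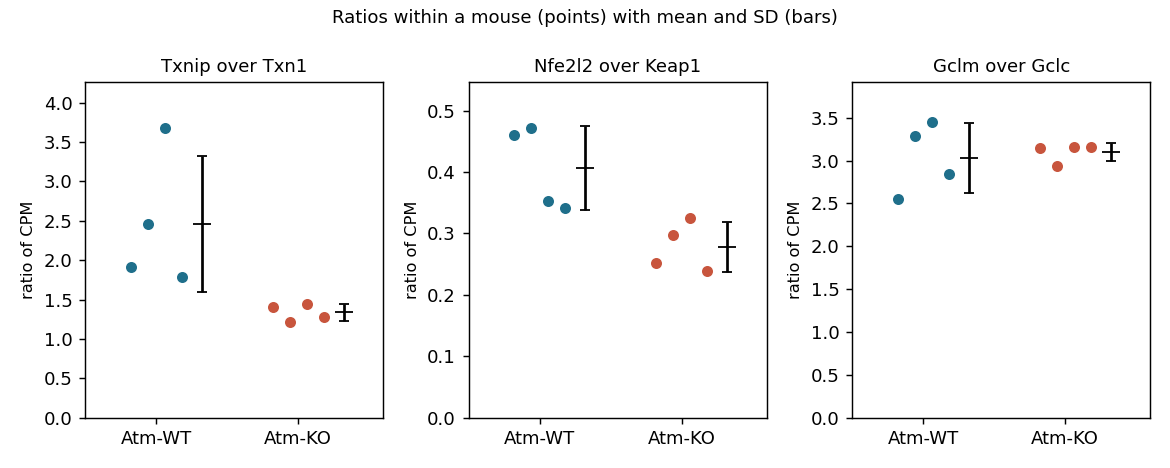
Each point is the ratio of 2 transcripts' CPM within a mouse, and bars give the mean and SD of 4 mice. *Txnip* over *Txn1* averages 2.46 in the *Atm*-WT group and 1.34 in the *Atm*-KO group, *Nfe2l2* over *Keap1* 0.407 and 0.278, and *Gclm* over *Gclc*, the modifier to the catalytic subunit of the same enzyme, 3.03 and 3.10.

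The peroxide-removing enzymes of the catalase and glutathione peroxidase group were lower in 6 of 6 cases (53.1% of all genes tested), 2 of them at an unadjusted p under 0.05 (8.48%). *Cat*, which splits hydrogen peroxide in peroxisomes, stood at 44.9, 48.03, 43.9 and 47.7 CPM in *Atm*-WT mice and at 36.7, 42.7, 38.98 and 36.4 CPM in *Atm*-KO mice. The highest *Atm*-KO mouse, 7F, was just below the lowest *Atm*-WT mouse, 13M, and the log2 fold change was -0.25 ± 0.07 (adjusted p = 0.115 by edgeR, 0.0422 by DESeq2). *Gpx4*, which reduces lipid peroxides in membranes and protects cells from ferroptosis, stood at 111, 109, 112 and 122 CPM in *Atm*-WT mice and at 99.9, 95.4, 102 and 94.2 CPM in *Atm*-KO mice. All *Atm*-KO mice were again lower, with a log2 fold change of -0.21 ± 0.06 (adjusted p = 0.116 by edgeR, 0.0513 by DESeq2). Per kilobase of its canonical transcript *Gpx4* was the most abundant member, at 118 CPM per kb in *Atm*-WT and 102 CPM per kb in *Atm*-KO mice.

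*Gpx1*, the general cytosolic glutathione peroxidase, stood at 22.6, 16.3, 19.7 and 24.1 CPM in *Atm*-WT mice and at 18.3, 20.1, 17.3 and 15.8 CPM in *Atm*-KO mice. Its genotypes overlapped, with mouse 7M the lowest *Atm*-WT mouse, and the log2 fold change was -0.21 ± 0.12, against -0.13 without mouse 32M and -0.08 without mice 32M and 12M. An antisense transcript covers 85.3% of the *Gpx1* exon bases and the gene *Tnip1* covers 85.0% of those of *Gpx3*, a secreted peroxidase, so without the strand setting reads of these partners cannot be told apart. *Gpx3* (-0.28 ± 0.31) and the endoplasmic reticulum peroxidases *Gpx7* (-0.36 ± 0.35) and *Gpx8* (-0.27 ± 0.17) were low in level, with at most 8.42 CPM in any mouse, and had wide errors, with log2 fold changes of -0.07, -0.25 and -0.21 without mice 32M and 12M.

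Peroxiredoxins, the thiol peroxidases that carry much of the peroxide flux, were lower in 6 of 6 cases, as was *Srxn1*, whose enzyme repairs overoxidized peroxiredoxins, where 53.1% of all genes tested were lower. *Prdx1* stood at 93.7, 95.2, 100.1 and 116 CPM in *Atm*-WT mice and at 85.6, 85.2, 87.4 and 74.2 CPM in *Atm*-KO mice. The *Atm*-KO mice lay below the *Atm*-WT mice and mouse 12M was the lowest, with a log2 fold change of -0.29 ± 0.08 (adjusted p = 0.116 by edgeR, 0.0431 by DESeq2). Its promoter holds one of the antioxidant response element cores printed above. Without mice 32M and 12M its log2 fold change was -0.16 ± 0.06 (adjusted p = 0.31 by edgeR).

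*Prdx2*, an abundant cytosolic peroxiredoxin of neurons, stood at 126, 118, 130.5 and 142 CPM in *Atm*-WT mice and at 122, 118, 117 and 106 CPM in *Atm*-KO mice. The genotypes overlapped and the log2 fold change was -0.16 ± 0.07, against -0.07 without mice 32M and 12M. *Prdx5*, found in mitochondria and peroxisomes, stood at 62.9, 46.3, 48.04 and 68.3 CPM in *Atm*-WT mice and at 43.5, 52.4, 43.6 and 39.5 CPM in *Atm*-KO mice, with mice 2M and 32M well above the other *Atm*-WT mice and a log2 fold change of -0.33 ± 0.13 (-0.17 without mice 32M and 12M). Part of its exon bases (29.2%) is shared with *Trmt112* on the opposite strand. The mitochondrial *Prdx3* (-0.19 ± 0.09), the endoplasmic reticulum gene *Prdx4* (-0.20 ± 0.14), *Prdx6* (-0.15 ± 0.07) and *Srxn1* (-0.15 ± 0.08) had unadjusted p-values from 0.0539 to 0.177, and each overlapped between genotypes. Without mice 32M and 12M they were at -0.07 (*Prdx3*), -0.11 (*Prdx4*), -0.08 (*Prdx6*) and -0.06 (*Srxn1*). The summed level of the group ranged from 562 to 659 CPM in *Atm*-WT and from 471 to 547 CPM in *Atm*-KO mice.

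Superoxide dismutases were lower in 3 of 3 cases (53.1% of all genes tested), 1 of them at an unadjusted p under 0.05 (8.48%). *Sod1*, the copper and zinc enzyme of the cytosol, stood at 59.1, 45.7, 44.4 and 60.5 CPM in *Atm*-WT mice and at 42.9, 51.1, 44.8 and 38.1 CPM in *Atm*-KO mice. The *Atm*-WT mice formed a high pair, 2M and 32M, and a low pair, 7M and 13M, the *Atm*-KO mice overlapped the low pair and mouse 7F exceeded it, and the log2 fold change was -0.25 ± 0.12 (unadjusted p = 0.0618), against -0.11 without mice 32M and 12M. The exons of *Sod1* share 48.8% of their bases with *Scaf4* on the opposite strand. *Sod3*, the secreted enzyme of the extracellular space, stood at 11.2, 11.97, 9.98 and 11.3 CPM in *Atm*-WT mice and at 6.62, 11.3, 7.63 and 8.16 CPM in *Atm*-KO mice. Mouse 7F lay within the *Atm*-WT range and the other 3 *Atm*-KO mice below it (log2 fold change -0.40 ± 0.15, unadjusted p = 0.0248). *Sod2*, the manganese enzyme of mitochondria, had the highest CPM of all members, with means of 311 ± 22.7 CPM in *Atm*-WT mice and 293 ± 19.9 CPM in *Atm*-KO mice and a log2 fold change of -0.09 ± 0.07 (-0.03 without mice 32M and 12M).

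Of the genes of glutathione synthesis and recycling, 3 of 4 were lower (53.1% of all genes tested), 1 of them at an unadjusted p under 0.05 (8.48%). *Gclc*, the catalytic subunit of the rate-limiting glutamate-cysteine ligase, stood at 48.95, 45.04, 45.2 and 52.7 CPM in *Atm*-WT mice and at 47.6, 46.8, 45.9 and 43.2 CPM in *Atm*-KO mice. The *Atm*-KO mice lay within or just below the *Atm*-WT range and the log2 fold change was -0.06 ± 0.07. Its modifier subunit *Gclm* (-0.03 ± 0.07) and glutathione synthetase *Gss* (0.02 ± 0.10) were as close to 0, *Gclc* and *Gclm* both turned to 0.01 without mice 32M and 12M, and the ratio of *Gclm* to *Gclc* averaged 3.03 ± 0.413 in *Atm*-WT mice and 3.10 ± 0.107 in *Atm*-KO mice. *Gsr*, which regenerates reduced glutathione with NADPH, stood at 34.95, 33.4, 34.1 and 38.8 CPM in *Atm*-WT mice and at 30.3, 33.2, 31.3 and 30.5 CPM in *Atm*-KO mice. The *Atm*-KO mice were all below the *Atm*-WT mice, with 7F just under the lowest of them, and the log2 fold change was -0.17 ± 0.07 (unadjusted p = 0.0334 and adjusted p = 0.209 by edgeR), against -0.11 without mice 32M and 12M.

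Glutathione transferases, which attach glutathione to electrophiles, were lower at an unadjusted p under 0.05 in 4 of 4 cases (8.48% of all genes tested), and none passed an adjusted p of 0.05. *Gsta4*, whose enzyme clears the lipid peroxidation product 4-hydroxynonenal, stood at 21.7, 19.9, 19.2 and 26.2 CPM in *Atm*-WT mice and at 16.4, 19.4, 18.6 and 15.2 CPM in *Atm*-KO mice. Mouse 7F, the highest of the *Atm*-KO mice, overlapped the lowest *Atm*-WT mouse, and the log2 fold change was -0.32 ± 0.12 (unadjusted p = 0.0173), and -0.16 without mice 32M and 12M. *Gstm1*, strong in astrocytes, stood at 95.01, 98.5, 78.9 and 90.3 CPM in *Atm*-WT mice and at 64.5, 90.6, 72.5 and 72.03 CPM in *Atm*-KO mice, with mouse 7F inside the *Atm*-WT range and a log2 fold change of -0.28 ± 0.10 (unadjusted p = 0.0214).

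*Gstm5* stood at 40.6, 34.6, 40.2 and 48.4 CPM in *Atm*-WT mice and at 32.03, 35.9, 36.1 and 24.8 CPM in *Atm*-KO mice. Mouse 12M was far below the other *Atm*-KO mice, 2 of which lay above the lowest *Atm*-WT mouse, and the log2 fold change of -0.35 ± 0.13 shrank to -0.15 without mice 32M and 12M. *Gstp1* stood at 39.03, 33.4, 32.05 and 43.3 CPM in *Atm*-WT mice and at 32.5, 32.7, 30.3 and 28.2 CPM in *Atm*-KO mice, with overlap at the low end of the *Atm*-WT mice and a log2 fold change of -0.26 ± 0.10 (unadjusted p = 0.0250), which was -0.13 without mice 32M and 12M. Mu and pi transferases have close paralogs, so the split of reads among their genes is uncertain. The summed level of the 4 genes ranged from 170 to 208 CPM in *Atm*-WT and from 140 to 179 CPM in *Atm*-KO mice.

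The transcripts of the inducible haem oxygenase and the quinone reductase were low in this tissue and overlapped between genotypes. *Hmox1*, the inducible haem oxygenase, stood at 2.42, 2.15, 2.35 and 3.48 CPM in *Atm*-WT mice and at 2.28, 2.32, 2.79 and 1.95 CPM in *Atm*-KO mice. Only mouse 32M exceeded 3 CPM, and the log2 fold change of -0.15 ± 0.20 turned to 0.09 without mice 32M and 12M and to 0.02 without 32M alone, and was -0.24 without 7M or without 11M and -0.08 without 12M. *Nqo1*, the quinone reductase, stood at 7.14, 6.42, 6.72 and 6.80 CPM in *Atm*-WT mice and at 5.55, 6.34, 5.62 and 7.55 CPM in *Atm*-KO mice. The *Atm*-WT mice were close together, mouse 12M was the highest of all 8 and the other 3 *Atm*-KO mice were below the *Atm*-WT mice, giving a log2 fold change of -0.11 ± 0.13. This was -0.21 without mouse 12M, -0.06 without 1M and -0.05 without 11M.

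*Hmox2*, the constitutive haem oxygenase of neurons, stood at 44.1, 39.99, 40.7 and 48.1 CPM in *Atm*-WT mice and at 36.03, 42.5, 37.5 and 33.5 CPM in *Atm*-KO mice. Only mouse 7F of the *Atm*-KO mice reached the *Atm*-WT range, and the log2 fold change was -0.21 ± 0.09 (unadjusted p = 0.0362; -0.11 without mice 32M and 12M), in a gene whose exons share 75.8% of their bases with *Cdip1*. *Nox4*, an oxidase that makes hydrogen peroxide rather than removing it, was the least abundant member, at most 0.536 CPM in any mouse (log2 fold change -0.42 ± 0.55, which turned to 0.24 without mice 32M and 12M and to 0.05 with a surrogate variable). Altogether the 15 members not given mouse by mouse had log2 fold changes from -0.42 to 0.02 and unadjusted p-values from 0.0539 to 0.832.

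Promoter letters and the direction of a member were set side by side as a description. The 6 members with an antioxidant response element core had a median log2 fold change of -0.20 (from -0.35 to -0.03), and the 31 without it also had -0.20 (from -1.02 to 0.21). *Nfe2l2* itself, *Nqo1*, *Hmox1*, *Gclc* and *Srxn1* held no such match in these 250 bases, which says nothing of sites farther away or of elements spelled otherwise. Of the members, *Keap1*, *Gclc*, *Gsta4* and *Gpx1* lie on chromosome 9 with *Atm*, at 32.2, 24.2, 24.6 and 54.8 Mb from it. Their log2 fold changes ran from -0.32 (*Gsta4*) to 0.02 (*Keap1*).

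Because fold changes of all genes varied with their level, the members were set beside genes of like abundance. Of the 37 members 35 fell in the upper 3 quintiles of mean level, where the median log2 fold change of all genes was -0.03, -0.05 and -0.06 and the share of lower genes 54.2%, 62.8% and 71.0%, from the third to the highest quintile. The members in these quintiles had medians of -0.18 (10 genes, 8 lower), -0.23 (16 genes, 15 lower) and -0.15 (9 genes, 9 lower). In the 2 lowest quintiles the medians of all genes were positive, at 0.19 and 0.12, and the members there were *Nox4* and *Gpx7*, both lower in the fit of all 8 mice, with *Nox4* higher (0.24) and *Gpx7* lower (-0.25) without mice 32M and 12M.

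**Figure D5:**
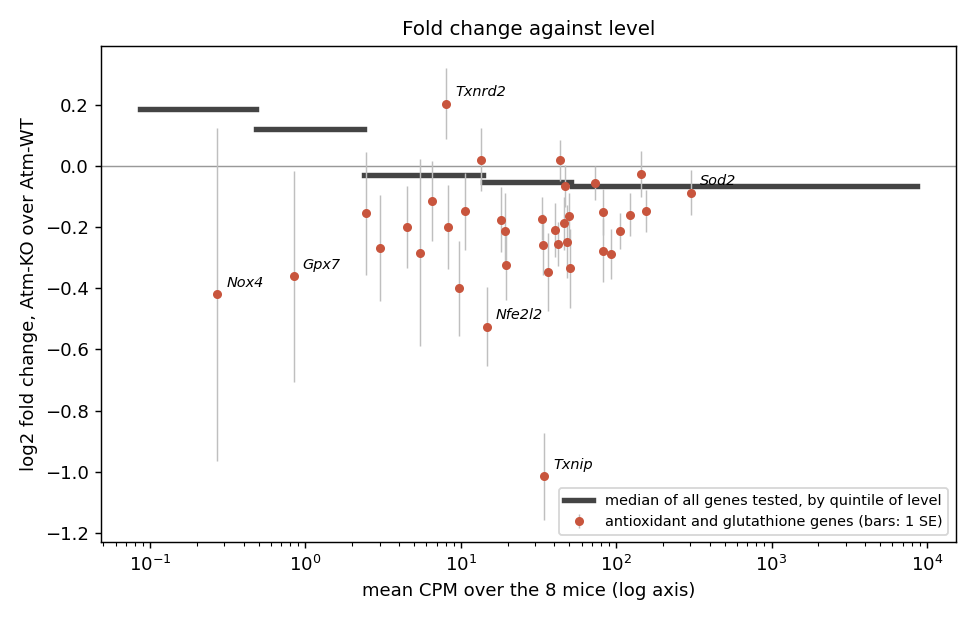
The horizontal axis is the mean CPM over the 8 mice on a log scale and the vertical axis the log2 fold change (*Atm*-KO over *Atm*-WT). Dark bars mark the median of all genes tested in each quintile of level, from 0.19 at low to -0.06 at high abundance, and red points with 1 standard error are the members, most of which lie below the bar of their quintile.

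Other genes of these pathways were listed by function. Their values come from the fit of all mice, and how far they rest on mice 32M and 12M is not given. Of 97 genes tested in 7 lists, 77 were lower (53.1% of all genes tested) and 20 higher, with a median log2 fold change of -0.14. At an unadjusted p under 0.05, 23 were lower (8.48% of all genes tested) and 3 higher (11.7%), and 0 passed an adjusted p of 0.05 by edgeR or limma voom. DESeq2 called 5 lower (2.44% of all genes), namely *Mafk*, *Ftl1*, *Mgst1*, *Ncf1* and *Maob*. Among partners and regulators of NRF2 (8 of 10 lower, 3 at an unadjusted p under 0.05) were *Sqstm1* (log2 fold change -0.30 ± 0.10), which sequesters KEAP1 for autophagy, and the small Maf partners *Mafk* (-0.52 ± 0.17) and *Maff* (-0.89 ± 0.32). The lists were not matched for mean level, and in the fourth and highest quintiles 62.8% and 71.0% of all genes were lower. Other NRF2 target genes were lower in 10 of 14 cases, 4 of them at an unadjusted p under 0.05.

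Both ferritin subunits, which store iron away from peroxide, were among these targets. *Ftl1*, the light chain, stood at 74.9, 73.5, 67.2 and 85.2 CPM in *Atm*-WT mice and at 59.8, 61.9, 56.1 and 60.4 CPM in *Atm*-KO mice. All *Atm*-KO mice were below the *Atm*-WT mice (log2 fold change -0.34 ± 0.08, adjusted p = 0.0938 by edgeR). *Fth1*, the heavy chain, stood at 456, 308, 267 and 439 CPM in *Atm*-WT mice and at 222, 282, 244 and 148 CPM in *Atm*-KO mice, with mouse 12M the lowest and 7F inside the *Atm*-WT range (log2 fold change -0.72 ± 0.20, adjusted p = 0.116). *Tkt* of the pentose phosphate pathway (-0.21 ± 0.08) and the efflux pump *Abcc4* (-0.35 ± 0.14) were the other 2.

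For NADPH supply 7 of 10 genes were lower (53.1% of all genes tested). All but *Nnt* lay in the fourth and highest quintiles of mean level, where 62.8% and 71.0% of all genes were lower. At an unadjusted p under 0.05, 3 genes were lower (8.48%). These were the NAD kinases *Nadk* (-0.16 ± 0.06) and *Nadk2* (-0.20 ± 0.08) and the dehydrogenase *Idh1* (-0.24 ± 0.10). *Nnt*, whose mitochondrial enzyme makes NADPH from NADH, was higher in every *Atm*-KO mouse than in any *Atm*-WT mouse (6.47% of all genes tested). This gene was low in level, with from 50 counts (mouse 7M) to 134 counts (mouse 1M) in a library. At an unadjusted p under 0.05, 11.7% of all genes tested were higher. *Nnt* stood at 0.726, 0.672, 0.804 and 0.746 CPM in *Atm*-WT mice and at 1.64, 1.07, 1.24 and 0.918 CPM in *Atm*-KO mice, with a log2 fold change of 0.72 ± 0.24 (unadjusted p = 0.0117, adjusted p = 0.146 by edgeR).

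Further glutathione transferases were lower in 13 of 15 genes tested (53.1% of all genes tested), 2 of them at an unadjusted p under 0.05 (8.48%). The microsomal *Mgst1* stood at 10.4, 12.4, 12.5 and 12.8 CPM in *Atm*-WT mice and at 9.12, 8.18, 9.22 and 8.97 CPM in *Atm*-KO mice, without overlap between genotypes (log2 fold change -0.44 ± 0.10, adjusted p = 0.0942 by edgeR), and *Gstt1* had a log2 fold change of -0.30 ± 0.11. Genes of glutathione precursors and turnover were lower in 13 of 17 cases, 3 at an unadjusted p under 0.05, and 2 were higher at that level (8.48% and 11.7% of all genes tested). The 4 with the smallest p were the mitochondrial glutathione carriers *Slc25a40* (0.34 ± 0.12, higher) and *Slc25a39* (-0.24 ± 0.10, lower), the glyoxalase *Glo1* (-0.16 ± 0.07) and the gamma-glutamyltransferase family gene *Ggt7* (0.14 ± 0.06, higher).

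Thiol repair and selenoprotein genes were lower in 18 of 20 cases (53.1% of all genes tested), 5 at an unadjusted p under 0.05 (8.48%). The 4 with the smallest p were the selenium carrier *Selenop* (-0.35 ± 0.13), the sestrins *Sesn3* (-0.20 ± 0.08) and *Sesn1* (-0.16 ± 0.07) and the methionine sulfoxide reductase *Msrb3* (-0.24 ± 0.10). Of the sources of oxidants 8 of 11 genes tested were lower, 3 of them at that level, namely the monoamine oxidase *Maob* (-0.38 ± 0.11), the phagocyte oxidase subunit *Ncf1* (-0.49 ± 0.17) and xanthine dehydrogenase *Xdh* (-1.03 ± 0.38). *Xdh* varied widely, at 28.6, 14.2, 43.4 and 14.5 CPM in *Atm*-WT mice and at 16.2, 17.8, 7.71 and 7.42 CPM in *Atm*-KO mice, and its genotypes overlapped.

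Markers of several cell types were also lower, where 53.1% of all genes tested were lower and 8.48% were lower at an unadjusted p under 0.05. The markers were not matched for mean level, and in the fourth and highest quintiles 62.8% and 71.0% of all genes were lower. Markers of microglia were lower in 8 of 8 cases (5 at an unadjusted p under 0.05, summed level from 86.3 to 126 CPM in *Atm*-WT and from 68.5 to 91.5 CPM in *Atm*-KO mice), those of astrocytes and Bergmann glia in 8 of 8 (3 at that level, from 5060 to 5820 CPM and from 4480 to 5250 CPM), and those of mural cells in 7 of 7 (3 at that level, from 196 to 242 CPM and from 149 to 199 CPM). Oligodendrocyte markers were lower in 7 of 8 cases (3 at that level, from 3280 to 4310 CPM and from 1990 to 3390 CPM) and choroid plexus markers in 7 of 7 (3 at that level, from 802 to 1590 CPM and from 439 to 1240 CPM). Endothelial markers were lower in 4 of 8 (3 at that level), meningeal fibroblast markers in 5 of 7 (1 at that level) and Purkinje cell markers in 5 of 6 (1 at that level). Granule cell markers were lower in 2 of 7 cases and red blood cell markers in 0 of 6 (0 at that level in both), and 0 of the 73 markers were at 0 in every mouse. The part of these cell types in the differences of the antioxidant genes was not tested, and in tissue RNA fewer cells of a type and less RNA per cell cannot be told apart.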

How the data were processed

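The authors took the cerebellum from saline-perfused mice and froze it, and Novogene extracted and sequenced the RNA. The authors then checked reads with FastQC 0.11.9, used STAR for alignment to GRCm39 and featureCounts for gene counts, and deposited the raw counts, not normalized. The strand and pair settings are not given in the sources used here. A count may therefore be a read or a pair. Gene identifiers were matched to GENCODE vM39, which held 98.8% of them.

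Libraries were grouped by the genotype in their labels (4 and 4), and all were used. p-values measure the spread between mice. edgeR 4.0.16 in R 4.3.3 was fitted on all genes kept by filterByExpr (22423), with TMM factors, glmQLFit, glmQLFTest and Benjamini-Hochberg adjustment over all of them, with no covariate. The common dispersion was 0.0404. DESeq2 1.42.0, limma voom 3.58.1, a surrogate variable from sva 3.50.0, other scalings and filters, and each mouse left out in turn were alternatives.

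The members and lists were chosen with earlier results of these data known. Values of every mouse are given for members with an unadjusted p under 0.05 or no overlap between genotypes, and for *Nfe2l2*, *Keap1*, *Hmox1*, *Nqo1*, *Gclc*, *Sod1*, *Cat* and *Gpx1*. From each other list, up to 4 genes with the smallest p under 0.05 are named.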

Additional observations from a re-analysis of the deposited data

Results flagged for a closer look

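In 4 of 74 groups of 4 mice, the mouse at one end stood farther from its neighbour than Dixon's criterion allows, where chance gives about 1 in 20, or 3.7. *Prdx1* in *Atm*-KO mouse 12M was 74.2 CPM against 85.2 to 87.4 CPM in the other *Atm*-KO mice. *Prdx6* in the same mouse was 135 CPM against 150.0 to 153 CPM. *Prdx4* in *Atm*-WT mouse 7M was 6.85 CPM against 9.17 to 9.57 CPM. *Glrx* in that mouse was 9.86 CPM against 11.6 to 11.9 CPM.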

How the results depend on the processing

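The median log2 fold change of the members was below 0 in all 18 alternatives, from -0.23 to -0.11. The count of members past an adjusted p of 0.05, 0 by edgeR (0.0178% of all genes called), was 4 by DESeq2 (7.49%), 2 with no filter on low counts (1.62%), 1 with a surrogate variable (0.0669%), 1 without mice 32M and 12M together (0.106%, chosen after seeing the data) and from 0 to 1 with each mouse left out. The members called in these fits were *Txnip* in every case, *Nfe2l2* also by DESeq2 and with no filter, and *Cat* and *Prdx1* by DESeq2. The count at an unadjusted p under 0.05, 14 in all mice, was 9 with library size alone as scaling (4.66% of all genes lower at that level, against 8.48%), 8 with a surrogate variable (6.36%), 6 without mice 32M and 12M (6.05%) and from 7 to 18 with each mouse left out (7 without 32M or 11M, 9 without 1M or 12M). The log2 fold change turned sign for *Nox4* (-0.42 to 0.24 without 32M and 12M, 0.0514 with a surrogate variable), *Gclm* (-0.03 to 0.0106 and 0.0009) and, among members given mouse by mouse, *Hmox1* (0.0047 with a surrogate variable, 0.0937 without 32M and 12M, and from -0.2418 to 0.0168 with each mouse left out), *Gclc* (0.0105 without 32M and 12M) and *Keap1* (from -0.0245 to 0.0513 with each mouse left out). *Gss*, at 0.02 with all mice, fell below 0 without 7M, without 1M and without 12M. The adjusted p of *Nfe2l2* ranged from 0.00539 to 0.294. Protein-coding genes alone, also chosen after seeing the data, gave 12 members at an unadjusted p under 0.05 (7.41% of all genes lower at that level). No paired analysis was possible because the labels pair no mice. Depth limits *Nox4* and *Gpx7* most, the members with the fewest counts and the widest errors (SE 0.55 and 0.35).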
